A study of Mus musculus with 12 samples.

Results

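The ChIRP-seq peaks described here are those that the deposited annotation places in a coding exon, a 5' UTR, a 3' UTR, a non-coding transcript or the surroundings of a transcript end, which it labels TTS. They were taken by this annotation class alone and number 339 of 4286 peaks, or 7.91% (95% exact Clopper-Pearson interval 7.12 to 8.76). Of these, 161 lay in coding exons, 85 at transcript ends, 54 in 3' UTRs, 22 in non-coding transcripts and 17 in 5' UTRs. The remaining 3947 peaks were annotated as promoter (405), intron (1826) or intergenic (1716).

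MLE-12 is a mouse lung epithelial cell line. For ChIRP-seq, its chromatin was incubated with 150 pmol of biotinylated tiling probes against mature Mirlet7d at 37 °C for 4 h, the complexes were taken up on streptavidin beads, and the attached DNA was sequenced. The labels of this library also carry the tag "gof" with the value Mirlet7d. For the RNA pull-down, 25 nM of biotinylated Mirlet7d was transfected into MLE-12 cells, which were harvested after 48 h, and the pull-down is set beside an input RNA library. Each of the 12 libraries of the series is the only one of its group. The ChIRP input library was not analysed here, and the sources used here do not say whether it served as the peak caller's control. A capture with unrelated probes or an unrelated RNA was not analysed here for either assay.

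MicroRNAs of the let-7 family repress messenger RNAs by pairing their seed, bases 2 to 8 from the 5' end, with sites that lie mostly in 3' UTRs, as part of Argonaute complexes in the cytoplasm. The family is known for restraining growth-promoting genes and accumulates as epithelial cells of the lung and other organs mature. ChIRP-seq instead records DNA that is held near an RNA in chromatin, so a peak in an exon or a 3' UTR is a stretch of genomic DNA, not a site on a messenger RNA.

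The mature products of Mirlet7d are shown first, since the labels name no arm, followed by the other let-7 family member whose gene was the nearest to one of the 339 peaks, and then by the mature products of the 4 microRNA genes whose own ends carried a peak. Capitals mark the seed, and the sequences are those of RefSeq for GRCm38.p6.
mmu-let-7d-5p: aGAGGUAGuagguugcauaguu
mmu-let-7d-3p: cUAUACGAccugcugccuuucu
mmu-let-7i-5p: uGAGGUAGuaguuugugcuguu
mmu-miR-1932: gUUGCGGAcagcgcuaggucgg
mmu-miR-6546-5p: aGGCGCCUcugagcuugugcuugu
mmu-miR-6546-3p: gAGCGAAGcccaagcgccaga
mmu-miR-6926-5p: uCAGUGGGgugagggaugguga
mmu-miR-6926-3p: uCACCAUCccugucuccauag
mmu-miR-7001-5p: aGGCAGGGugugagcgugagcau
mmu-miR-7001-3p: cGCUCACAcucccucugcag
Let-7i-5p shares the seed GAGGUAG with let-7d-5p and the products of the 4 other genes do not. RefSeq holds 11 mouse mature microRNAs that carry this seed. The sequence of the peaks themselves was not used here.

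Most of the peaks had scores near the lower end of the list. Each peak carries a score that the authors deposited from the peak caller MACS. Its scale is not stated with the values, and it serves here only to rank peaks within this list. Over the 339 peaks the score ran between 30.02 and 227.96 with a median of 35.38 (order-statistic 95% interval 34.78 to 36.46), against 34.21 (34.04 to 34.36) in the other 3947 peaks. These intervals do not overlap, but they are close together and cover counting error over peaks of 1 library. There is no replicate, so no test was made between classes. A score over 50 was reached by 35 of the 339 peaks, or 10.3% (7.30 to 14.1), near the 9.92% of all peaks. The peaks were 675 bases wide at the median (656 to 706), against 644 bases (639 to 649) in the other peaks.

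**Figure D1:**
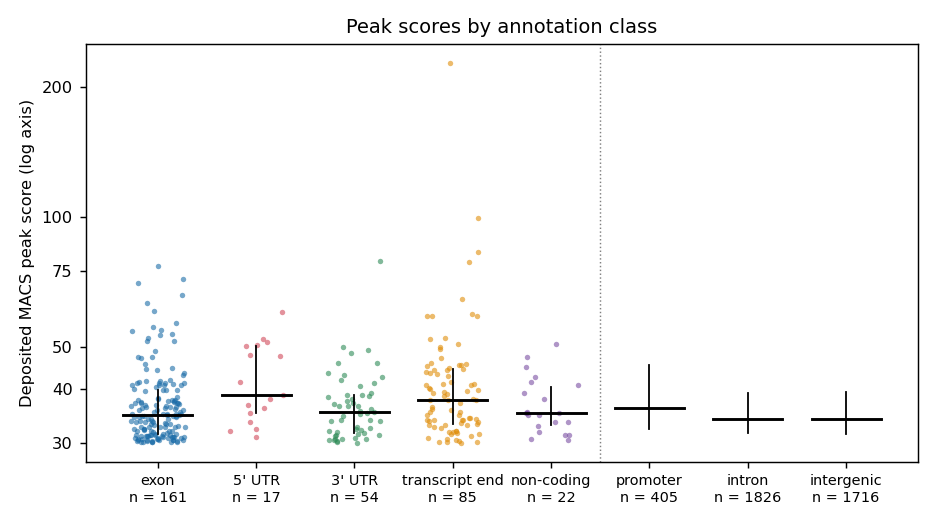
Deposited MACS score (log axis) of every peak in the 5 classes, 1 point per peak, with the median (bar) and quartiles (line); promoter, intron and intergenic peaks are drawn by median and quartiles alone. The transcript-end class holds the 227.96 of the Rn4.5s array, and 5' UTR peaks have the highest median at 38.67.

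The number of high scores is given by class, without a test between classes. Among 5' UTR peaks the median was 38.67 (35.21 to 50.32) and 5 of 17 exceeded 50. Transcript-end peaks had a median of 37.81 (34.78 to 40.83) and 13 of 85 over 50, or 15.3% (8.40 to 24.7). In 3' UTRs the median was 35.31 but 1 of 54 peaks exceeded 50, or 1.85% (0.0469 to 9.89). Coding-exon peaks had a median of 34.82, with 15 of 161 over 50, and peaks in non-coding transcripts had 35.22, with 1 of 22 over 50. Promoter peaks had a median of 36.09, which lies inside the 5' UTR and transcript-end intervals, and 18.5% (14.9 to 22.7) of them exceeded 50. The 3' UTR and transcript-end intervals for the share over 50 overlap slightly.

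The strongest of the 339 peaks lay in an array of 4.5S RNA genes. At chr6:47618586-47625289 (mm9) a transcript-end peak of Rn4.5s, which encodes a short rodent non-coding RNA, scored 227.96 and was 6704 bases wide. A neighbouring one at chr6:47629809-47631448 scored 78.66. Rn4.5s is present in many near-identical copies, so reads here could come from more than 1 copy and both values are uncertain. The next transcript-end peak, at Prr15l (chr11:96796214-96797659), scored 99.54. The end of Tm7sf2, a sterol reductase gene, scored 83.29 at a peak that lies nearest to the start of Znhit2, and the end of 4930481A15Rik scored 64.74 nearest to Drap1.

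In coding exons the 5 highest scores belonged to genes of unlike function. Use1, which encodes a SNARE protein of transport from the Golgi to the endoplasmic reticulum, scored 77.1 at chr8:73890638-73891821, 113 bases from its start. Mogs, the glucosidase that begins the trimming of N-glycans, scored 72.09, and Fkbp4, a co-chaperone of HSP90, scored 70.4. Trim65, a ubiquitin ligase, scored 66 and the transcription factor gene Thap11 scored 63.26. These 5 peaks are on chromosomes 6, 8 and 11.

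The 5' UTR class was led by Rnf43, a transmembrane ubiquitin ligase that removes WNT receptors from the cell surface, with a score of 60.43 in the second exon (chr11:87477504-87478541). Gtpbp3, which modifies mitochondrial transfer RNAs, scored 52.14. The glutamate receptor gene Grik2 scored 51.45, Immt, which shapes the inner mitochondrial membrane, 50.52, and the translation initiation helicase Eif4a2 50.32. In 13 of the 17 peaks of this class the annotated exon was the first.

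In 3' UTRs the highest score, 79.16, was at H2bc6 (chr13:23676924-23677871), a histone H2B gene in a cluster of similar copies, where reads may be shared. Il12rb1, a subunit of interleukin receptors, followed at 49.97 and Sap30bp at 49.15. Ctdsp1, a phosphatase gene that carries the microRNA gene Mir26b, scored 48.43, and the ubiquitin ligase gene Trim67 45.89. All 54 peaks of the class lay in the last exon of the annotated transcript, 3 of them in transcripts of 1 exon.

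Peaks in non-coding transcripts were headed by C730002L08Rik at 50.96. A peak whose transcript found no match in the gene table, nearest to Tulp3, scored 47.36. Gm15401 scored 45.08, 1110028F11Rik 42.7 and Gm5577 41.44. The last exon was the annotated one in 14 of 22. The 3 lowest scores among all 339 peaks were 30.02 in the 3' UTR of Armt1, 30.03 at the end of Napsa and 30.07 in a 3' UTR nearest to Mafg.

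The coding-exon peaks lay mostly in internal exons, which are also most of the exons of their transcripts. Peaks in UTRs, at transcript ends and at promoters belong to other classes, so the positions that follow depend in part on how the annotation divides a transcript. Of the 161 coding-exon peaks, 109 (67.7%, 59.9 to 74.8) lay in an internal exon, 28 (17.4%) in the last, 17 (10.6%) in the first and 7 in a transcript of 1 exon. Over the 154 peaks in transcripts of several exons, the median relative rank of the exon was 0.5 (0.429 to 0.6), that is, the middle of the transcript, and transcripts had 2 to 47 exons with a median of 10. The last exon held 18.2% of these peaks (12.4 to 25.2), and the interval for the first was 6.56 to 17.1%. An equal share for every exon of a transcript is 12.7% for each end, without regard to exon length. Such an equal share also puts most peaks in internal exons and the median rank at 0.5. Neither value therefore shows a preference for internal exons. The median score was 33.76 in internal exons, 36.77 in first exons and 36.41 in last exons.

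The gene whose transcript gives a peak its class was often not the gene named nearest to that peak. The deposited annotation names as nearest the gene whose transcription start site (TSS) is closest. It separately gives the transcript behind the class of the peak, here called the host. For transcript-end peaks this is the transcript whose end is close, and the peak need not lie inside it. Of the 334 peaks whose host transcript was found in the gene table, 128 (38.3%) had another gene as nearest. The share was 66.0% in 3' UTRs (35 of 53, 51.7 to 78.5), 45.9% at transcript ends (39 of 85), 31.0% in coding exons (49 of 158), 23.8% in non-coding transcripts (5 of 21) and 0 of 17 in 5' UTRs. The host genes number 326 and so do the nearest genes. A reading of these peaks by nearest gene alone thus names a neighbour for most 3' UTR peaks.

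**Figure D2:**
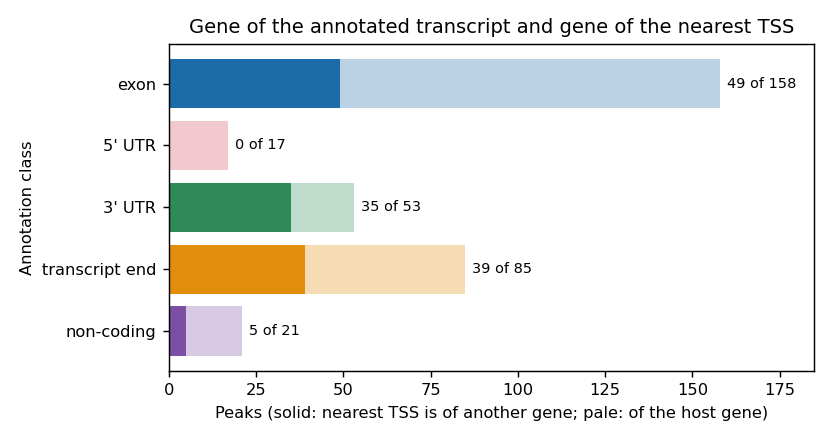
Number of peaks in each class whose host transcript was matched, split by whether the nearest TSS belongs to another gene (solid) or to the host gene (pale). The solid share is largest in 3' UTRs, 35 of 53, and no 5' UTR peak has one.

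Distances from the nearest TSS followed the classes. The median was 5697 bases (4627 to 6513) in the 339 peaks and 15520 in the other peaks. These others mix promoter peaks with a median of 263 bases, intron peaks with 15068 and intergenic peaks with 26668.5. Within the 339 the median was 250 bases in 5' UTRs, 4637 at transcript ends and 6054 in coding exons. In non-coding transcripts it was 7373.5 and in 3' UTRs 9494.5. No peak of the 5 classes came closer than 104 bases, in the 5' UTR of Tbc1d7. All 104 peaks of the series that lie closer than this are annotated as promoter. The promoter class takes the surroundings of a TSS, so this edge follows from how the classes are divided. Within 1 kb of a TSS were 53 peaks, or 15.6% (11.9 to 19.9), against 13.8% of all peaks. The latter are mostly promoter peaks, all 405 of which lie there, with 7.34% of intron peaks and 0 of 1716 intergenic peaks. Of the 53, 47 were near the start of their own host gene and 6 near that of another gene. Transcript-end peaks gave 12 of the 53, of which 9 belonged to the near gene itself, such as Terc (503 bases), Snora17 (203 bases) and the 4 microRNA genes listed above, where start and end are close together.

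**Figure D3:**
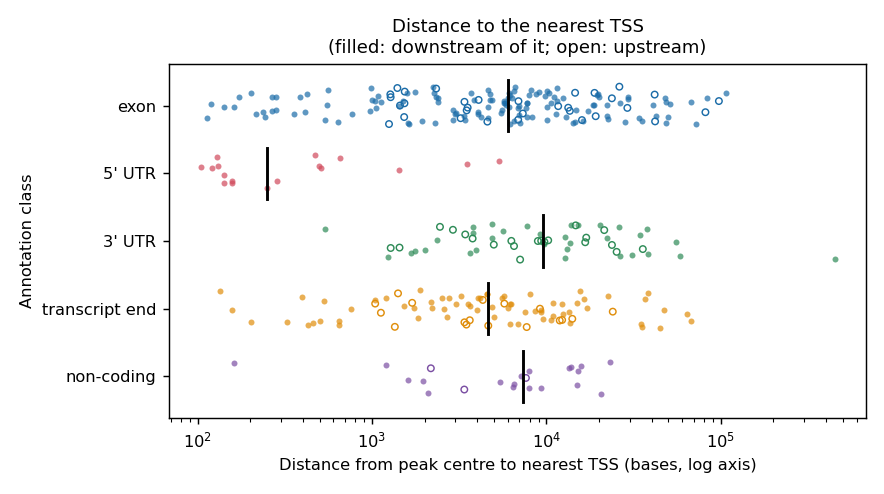
Distance in bases (log axis) from the centre of each peak to the nearest TSS, 1 point per peak, filled where the peak lies downstream of that TSS and open where upstream; bars are medians. 5' UTR peaks centre on 250 bases and 3' UTR peaks on 9494.5 bases, with 1 in Robo2 at 449154 bases.

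Several genes carried a pair of peaks. Srsf1, a splicing factor, had 38.48 in its 3' UTR and 50.08 at its end, 4162 bases apart. Lsm4, a subunit of the ring that binds U6 and decaying RNAs, had 39.88 in an exon and 38.51 at its end, and Ogg1, a DNA repair glycosylase, had 40.44 and 39.83 in exons. Gpr179, a receptor of the retina, had 53.36 and 37.02 in exons. Ehbp1l1 had 37.72 in an exon and 35.21 in its 5' UTR, and Arhgdia had 37.97 at its end and 35.75 in an exon. In Sap30bp the 3' UTR peak of 49.15 and the end peak of 37.1 were 4 bases apart, and the exon peak of Mogs at 72.09 was 2 bases from a peak of 32.54 at the end of the neighbouring gene Wbp1. Peaks so close to each other are not independent sites.

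By nearest gene, 5 more pairs join different hosts. Mpv17l2 was nearest to the ends of Rab3a (43.68) and Ifi30 (47.28), Pard6a to its own end (34.21) and an exon of Enkd1 (39.96), and Podxl to its own end (31.91) and the 3' UTR of Mkln1 (30.57). Traip was nearest to an exon of its own (31.06) and one of Camkv (31.78). Mir6995 was nearest to the 3' UTR of Sh3pxd2a (38.01) and the end of Neurl1a (30.64). Another peak within 10 kb was found for 104 of the 339 peaks, or 30.7%, and for 20.7% of the other peaks.

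The chromosomes of these peaks were those of the whole list. On chromosomes 6, 8, 11, 16 and 19, which hold most peaks of the series, lay 216 of the 339, or 63.7% (58.3 to 68.8), near the 62.2% of all peaks. Chromosome 11 held 58, chromosome 8 held 51, chromosome 6 held 43, chromosome 19 held 36 and chromosome 16 held 28. Chromosome X, with 45 peaks in all, held 0 of the 339, which allows a share of up to 7.87% of its peaks. Outside the 5 chromosomes the median score of the 339 peaks was 33.9 and 2.44% exceeded 50, so that the high scores above lie mostly on those 5.

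MicroRNA genes were the nearest gene of 15 peaks, and for 11 of them another gene was the host. The same count was not made over all peaks, so the 15 are a description only. The TSS of the nearest microRNA gene was up to 449154 bases away, for Mir691. The 4 peaks whose transcript-end class came from the microRNA gene itself scored 52.54 at Mir1932 (chr11:119251532-119252354), 45.79 at Mir6546, 37.81 at Mir6926 and 34.1 at Mir7001. Their centres lay 157, 648, 643 and 395 bases downstream of the TSS, in that order. The class covers the surroundings of an end, so these peaks need not cover the microRNA gene. The peak nearest to Mirlet7i lay in the last exon of Mon2, in its 3' UTR, 8923 bases upstream of the microRNA gene, with a score of 33.9 (chr10:122431447-122431959). The other 10 scored between 30.64 and 48.43 and include the 3' UTRs of Ctdsp1 nearest to Mir26b, Mrtfb nearest to Mir193b and Rnf24 nearest to Mir103-2. Among other non-coding RNA genes, Snora17 scored 35.37 and Terc, the telomerase RNA, 33.88 at their ends. These genes were named after their values had been seen.

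The gene lists held few genes each with such a peak. A gene counts here if it was host or nearest gene of 1 of the 339 peaks, as were 448 of 26220 genes with a curated RefSeq transcript, or 1.71%. Of 45 known let-7 targets 3 were among them. Arid3a, a DNA-binding factor, scored 41.33 and Ccnd2, the cell cycle gene of cyclin D2, scored 40.73, both in the 3' UTR. Bach1, a repressor of heme-responsive genes, scored 30.5 at its end. Without the genome sequence no let-7 site was looked for under these peaks.

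Of 24 genes of microRNA processing and effectors 4 counted, from 3 peaks. The end of Dgcr8, the partner of Drosha in the nuclear step of microRNA processing, scored 45.91 and an exon of Tnrc6c, which recruits deadenylases to Argonaute, 37.91. A peak of 30.48 in the 3' UTR of Ago1 counts for Ago1 and, as its nearest gene, for Ago3. Of 35 WNT pathway genes 2 counted, Rnf43 as above and the ligand gene Wnt5b with 33.01 in an exon. Single genes counted among 36 of the TGF-beta and BMP pathway (Smad5, a BMP signal transducer, 30.57 in the 3' UTR), 34 of the cell cycle (Ccnd2) and 28 of the cytoskeleton (Ahnak, a large scaffold protein, 55.57 in an exon). Napsa, an aspartic protease that matures surfactant protein B, was the 1 of 35 lung epithelial genes, with 30.03 at its end. Rps9 counted among 45 ribosomal protein genes through a peak of 35.79 in an exon of Tsen34. Neat1 counted among 31 nuclear lncRNA, snoRNA host and imprinted genes through a peak of 31.88 in the 3' UTR of Frmd8.

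The other lists had no such gene: 38 of receptor kinases, RAS and PI3K, 29 of Polycomb PRC2 and the nuclear exosome, 30 of RNA polymerase II elongation, 32 of ribosome biogenesis, 35 of mesenchyme and matrix, 18 of endothelium and 20 of immune cells. Most list genes thus had no peak in the 5 classes, and a peak list holds no expression level with which to check the cell type of MLE-12 against its markers.

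The pull-down lists give, for RNA captured with biotinylated Mirlet7d, an RPKM in the pull-down and in its input and their ratio, all as the authors deposited them. RPKM is the number of reads scaled to transcript length and library size. The lists hold only transcripts with a fold of at least 2.5, so a gene outside them was not measured as unchanged. Of the 339 peaks, 19 shared at least 1 base with the span of an ncRNA candidate, or 5.60% (3.41 to 8.61), against 3.24% (2.71 to 3.84) of the other peaks and 3.43% of all peaks. The other peaks are mixed in this respect, with 10.1% (7.36 to 13.5) of promoter peaks and 1.69% of intergenic peaks, so that the 339 lie between them. With the span of an mRNA candidate 18 overlapped, or 5.31% (3.18 to 8.26), against 3.57% (3.02 to 4.20) of the other peaks and 3.71% of all. Both pairs of intervals overlap. With a gap of at most 10 kb allowed, the intervals no longer overlap, but they cover counting error over peaks of 1 library. They also treat peaks as independent. Another peak within 10 kb was found for 30.7% of the 339 and 20.7% of the other peaks, so several can count for 1 candidate. The values of the other peaks at this gap were added after the data had been seen. Of the 339 peaks 82, or 24.2% (19.7 to 29.1), lay near an ncRNA candidate, against 11.4% (10.4 to 12.4) of the other peaks and 12.4% of all peaks. For mRNA candidate spans the count was 38, or 11.2% (8.06 to 15.1), against 6.38% (5.64 to 7.19) of the other peaks and 6.77% of all. The 10 kb counts of the other peaks were not split into promoter, intron and intergenic peaks. The 339 peaks also lay closer to transcription starts than the other peaks pooled, though not than promoter peaks, as given above. The part of this in the 10 kb counts was not tested. For mRNA spans the pooled value of the other peaks includes 0 of 1716 intergenic peaks, which lie outside genes by their class, while intron peaks reached 6.46% and promoter peaks 5.68%, both above the 339.

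**Figure D4:**
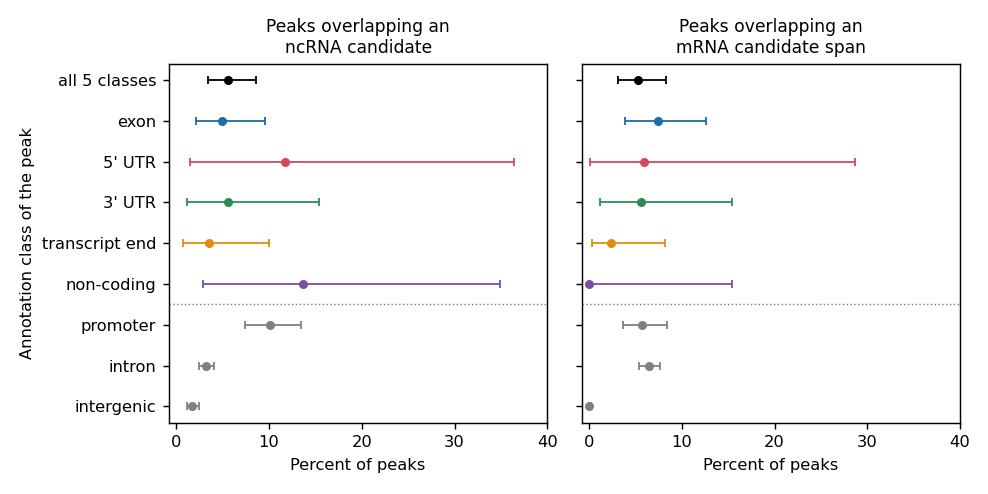
Percent of peaks in each class that share at least 1 base with an ncRNA candidate (left) or the span of an mRNA candidate (right), with exact 95% Clopper-Pearson intervals; the first row pools the 5 classes of exons, UTRs, non-coding transcripts and ends. The pooled values are 5.60% and 5.31%, and the 5' UTR and non-coding intervals are wide because these classes hold 17 and 22 peaks.

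The 19 peaks met 27 ncRNA transcripts, of which 13 are on the authors' list of promoter-associated ncRNAs. The share of that list among all ncRNA candidates was not computed, so the 13 are a count only. Their median deposited fold was 5.33, against 5.06 over all 6208 ncRNA candidates. In 4 of the 27 the input is listed as exactly 1 RPKM, as in 1563 of the 6208, and such a fold equals the pull-down value itself. By class, 8 of 161 coding-exon peaks, 3 of 85 transcript-end peaks, 3 of 54 3' UTR peaks, 3 of 22 non-coding peaks and 2 of 17 5' UTR peaks overlapped one.

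The largest fold belonged to NONMMUT066565, which shares 329 bases with an exon peak of Brd7, a bromodomain subunit of a chromatin remodelling complex. It had 9.309 RPKM in the pull-down and 0.091 RPKM in the input, a deposited fold of 102.3, under a peak that scored 39.73 at chr8:90857492-90858655. NONMMUT034946 at an exon of Mfsd13a had 6.125 RPKM in the pull-down and 0.372 RPKM in the input (16.47-fold). Both pairs rest on low input values, and the strand of the ncRNA relative to the host gene was not used.

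At Cracr2b, a regulator of calcium channels, a single exon peak of 32.65 met 3 ncRNA candidates assigned to the promoter of Cd151, a tetraspanin gene 1539 bases away. NONMMUT064227 had 18.795 RPKM in the pull-down and 1.243 RPKM in the input (15.12-fold). NONMMUT064228 had 18.625 RPKM in the pull-down and 1.649 RPKM in the input (11.29-fold), and the third had a fold of 3.92. Cracr2b itself is also an mRNA candidate, with 3.221 RPKM in the pull-down and 0.486 RPKM in the input (6.63-fold). This was the only 1 of the 339 peaks to overlap both an ncRNA and an mRNA candidate. The spans of all 3 ncRNA candidates overlap that of Cracr2b and strand was not used. The same reads may thus count in both lists. RPKM of the mRNA and ncRNA lists stand on different denominators and are not compared.

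The peak in Mirt1, a long non-coding RNA, met 5 candidates, the highest with a fold of 9.19 but with 5 shared bases. A second, with the whole peak inside it, had 7.439 RPKM in the pull-down and 1.096 RPKM in the input (6.79-fold). The 3' UTR of Sart1, a component of the spliceosome, met a candidate with 0.817 RPKM in the pull-down and 0.09 RPKM in the input (9.08-fold). In the 5' UTR of Immt the candidate had 8.338 RPKM and a listed input of 1. An exon of Nsd1, a methyltransferase of histone H3, met one with 16.891 RPKM in the pull-down and 2.174 RPKM in the input (7.77-fold).

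The end of Sac3d1 met a candidate of 7.35-fold and the end of Cltc, the clathrin heavy chain, one with 52.52 RPKM in the pull-down and 7.73 RPKM in the input (6.79-fold). An exon of P3h3 met one of 7.25-fold that is assigned to the promoter of Gnb3. NONMMUT011364, a span of 55372 bases with a fold of 4.1, held 2 of the peaks, in the 5' UTR of Rnf43 and in the non-coding transcript 1110028F11Rik. In the remaining 7 peaks the highest fold lay between 2.54, at an exon of Eif5, and 5.33, at an exon of Slc13a2. The latter rests on 0.048 RPKM in the pull-down and 0.009 RPKM in the input.

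Among mRNA candidates the highest fold was that of Use1, the gene that also had the highest coding-exon score. Its 2 listed transcripts had 4.543 and 5.195 RPKM in the pull-down, against 0.16 and 0.183 RPKM in the input, a fold of 28.39 for each. Ifit3, an interferon-induced gene with a 3' UTR peak of 43.5, had 0.595 RPKM in the pull-down and 0.048 RPKM in the input (12.4-fold). Carns1, the carnosine synthase gene with an exon peak of 47.5, had 0.463 RPKM in the pull-down and 0.038 RPKM in the input (12.18-fold). Ifit3 and Carns1 thus stayed under 1 RPKM in both libraries.

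Reep6, a membrane-shaping protein of the endoplasmic reticulum, had 3.914 RPKM in the pull-down and 0.414 RPKM in the input (9.45-fold) under an exon peak of 30.39. Trim67 (12-fold), Plbd1 (8-fold) and Kif19a (3-fold) had 0.012, 0.008 and 0.006 RPKM in the pull-down, in that order, and 0.001, 0.001 and 0.002 RPKM in the input, at the last decimals of the deposited values. Tbc1d7, a subunit of the complex that restrains mTORC1, had 0.076 RPKM in the pull-down and 0.019 RPKM in the input (4-fold). Its 5' UTR peak scored 36.14. Btg2, an antiproliferative gene, had 39.118 RPKM in the pull-down and 11.515 RPKM in the input (3.4-fold) under an exon peak of 31.19, with the highest pull-down RPKM of the 18 genes. Kank1, a cytoskeletal adaptor, had 17.647 RPKM in the pull-down and 5.219 RPKM in the input (3.38-fold) for the higher of its 2 listed transcripts.

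The other 7 genes had folds between 2.5 (Tex14) and 3.12 (1110004E09Rik), among them Lsm4 with 8.993 RPKM in the pull-down and 3.176 RPKM in the input. Tex14 and Ddx60 were also very low, with 0.01 and 0.028 RPKM in the pull-down and 0.004 and 0.011 RPKM in the input. Over the overlapped list entries, in which Reep6 stands 3 times with the same values, the median deposited fold was 3.7. It was 4.93 over all 1964 mRNA candidates. In 16 of the 18 peaks the candidate was the host gene. For a peak in Ddx60 the annotated transcript found no match in the gene table.

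**Figure D5:**
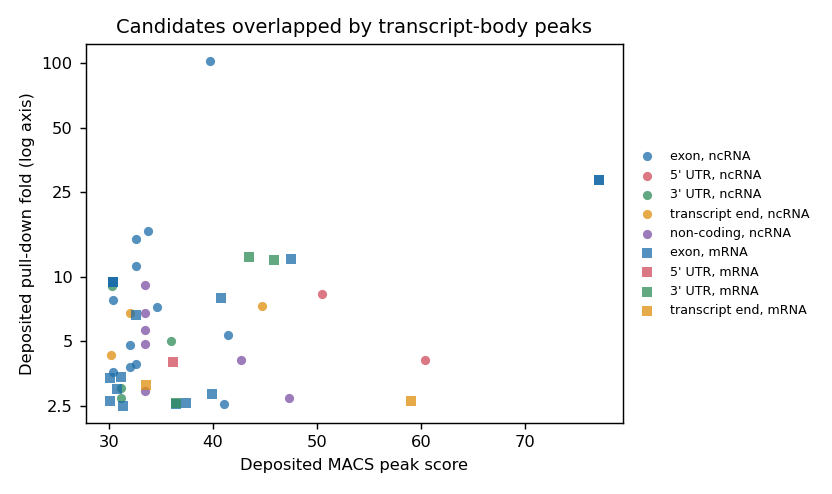
Deposited pull-down fold (log axis) against the score of the overlapping peak, 1 point per peak and candidate transcript; circles are ncRNA and squares mRNA candidates, coloured by annotation class. Use1 stands at a score of 77.1 and 28.39-fold, and the 102.3-fold ncRNA at the Brd7 peak has a score of 39.73.

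The overlap was also read by gene instead of position. The nearest gene was on the promoter-associated ncRNA list for 38 of the 339 peaks, or 11.2% (8.06 to 15.1), against 8.59% (7.73 to 9.51) of the other peaks and 8.8% of all peaks. It was on the mRNA list for 21, or 6.19% (3.88 to 9.31), against 6.69% (5.93 to 7.51) of the other peaks and 6.65% of all. By host gene the counts were 31 and 18 of 334. Outside the 5 peak-rich chromosomes the nearest gene was on the promoter-associated ncRNA list for 6.50% of 123 peaks (2.85 to 12.4). This value lies below the interval of all 339, but its own interval holds both 11.2% and 8.8%. The share of the other peaks outside these chromosomes was not computed.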

How the data were processed

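Peaks, classes, nearest genes and MACS scores are those the authors deposited, on mm9. Per the submitters' processing notes, both assays used FastQC, the aligner Bowtie2, SAMtools, HOMER and bedtools, ChIRP-seq also used MACS, and the pull-down (bedtools 2.15) also used Trimmomatic and Picard 1.119; their order and settings are not given in the sources used here. The score is the authors' value per peak. Pull-down and input RPKM and their ratio (fold) are as deposited, per the file headers. The annotated table was joined to the peak BED file by peak name, which gave the chromosome. Read depth of the peaks is unknown.

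Overlap required 1 shared base. Host transcripts were matched to a RefSeq gene table (GRCm38.p6), used for names only; 334 of 339 matched. Shares carry exact Clopper-Pearson and medians order-statistic 95% intervals, which cover counting error only. No test was made between peaks of 1 library. Python 3.11.15 with pandas 2.3.3, numpy 2.4.6 and scipy 1.17.1 was used, and overlap and interval code was tested on simulated data. Alternatives were stricter scores, overlaps and folds, each class alone, and peaks without the Rn4.5s array or the 5 peak-rich chromosomes. No repeat or CpG island is named in the detailed annotation of any of the 339 peaks (0 of 339, up to 1.08%), nor of the 405 promoter peaks, so repeats under them were not assessed. A search for the let-7d seed in promoters is counted as void, because 78.8% of the 52 genes had a sequence, less than the share required here.

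Unless said to be chosen after their values were seen, genes were named by rule: the 5 highest scores per class, genes with a pair of peaks, up to 4 members per list, the 10 highest folds per pull-down list, peaks overlapping both lists and the 3 lowest scores. The 339 peaks, the 16 gene lists and the 5 chromosomes were chosen with earlier results of these data known. Some items are not reported here.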

Additional observations from a re-analysis of the deposited data

How the results depend on the processing

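Of 63 alternatives, 39 stayed within the 95% interval of the value they replace (for the number of peaks, within 1.5 times) and 24 did not. The 39 include 9 without repeats and the Rn4.5s array, which left out only the 2 Rn4.5s peaks and so do not bear on repeats. They also include the share with a repeat or CpG island, 0 of 339, which stays 0 in any subset. The class from the detailed annotation gave the same number of peaks, 339, and is no separate check. At a score of at least 40, 100 peaks remained, 9.39% of all such peaks, with a median score of 45.8, a median width of 859 bases and 76% on the 5 peak-rich chromosomes. Without those chromosomes the median score was 33.9, 2.44% exceeded 50 and the median width was 605 bases. There, 6.50% (2.85 to 12.4) had a nearest gene on the promoter ncRNA list, an interval that holds the 11.2% it replaces. With a gap of at most 10 kb in place of an overlap, 24.2% of the peaks met an ncRNA candidate, against 11.4% of the other peaks, and 11.2% an mRNA candidate span, against 6.38%. With candidates of at least 5-fold, 2.06% overlapped an mRNA span, 5.01% had a nearest gene on the promoter ncRNA list and 2.65% on the mRNA list. Alone, 5' UTR peaks had a median score of 38.67, 29.4% over 50 and 11.8% at an ncRNA candidate; transcript-end peaks 37.81 and 15.3% over 50; 3' UTR peaks 1.85% over 50; and non-coding peaks 4.55% over 50 and 13.6% at an ncRNA candidate. Within 3 kb of a TSS lay 33.6%, and 3.83% exceeded a score of 60. The cause of these shifts was not tested, apart from those fixed by a wider or stricter limit. No paired analysis was possible because each group has 1 library, and with no replicate or read depth these intervals say nothing of the spread between experiments.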

Other observations

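Host genes of RNA processing and translation, chosen after their values were seen, lay in several classes. Prpf19, a ubiquitin ligase of the spliceosome, scored 48.07 in its 5' UTR. Pcbp1, a poly(C)-binding protein, scored 44.55 at its end, and Eif5, a translation initiation factor, 41.11 in an exon. Wbp11 scored 40.87 and the helicase gene Ddx21 34.01 in exons. In 3' UTRs the splicing regulator Srsf10 scored 36.51, the m6A reader Ythdf2 35.94 and the initiation factor Eif1 32.59.

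Hosts that encode chromatin proteins, also chosen after their values were seen, scored 44.63 (Men1), 41.94 (Setd1a), 37.07 (Arid2), 36.41 (H3f3b) and 32.57 (Crebbp) in exons. In 3' UTRs the DNA methyltransferase Dnmt3b scored 32.48 and the histone demethylase Kdm7a 31.19. No list of either kind was tested.

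Several peaks lay in or at the end of genes with close paralogs, so that their scores are uncertain: the exons of Gm13287 (37.74), Gm13276 (31.44) and Vmn1r18 (37.48), and the end of H2-M10.2 (40.3).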
